A study of Solanum lycopersicum with 9 samples.

Results

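In 1 of 3 guard cell libraries of the tomato line pro, pro library 3, 100 genes read far below every other library of the series. They were chosen from the authors' normalized counts, read counts divided by a scaling factor for each library. A gene was taken when its lowest value in the 8 other libraries was at least 20 and 4 times its value in pro library 3 was at most that lowest value. The floor of 20 was met by 17625 of the 23028 genes listed, and 100 of these met the 4-fold limit. The low level in pro library 3 is therefore how the genes were found and is given as a description, with no test.

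The libraries are poly(A) RNA from guard cells of leaves of the tomato cultivar M82 (sp-/sp, per the growth protocol, for all lines), with 3 libraries in each of 3 groups. The group pro carries a DELLA loss-of-function mutation, the group pro17 (pro∆17 in the series design) expresses a DELLA gain of function, and M82 is the parent cultivar. The labels give no promoter for pro17, no plant age and no water treatment of the sampled plants, and the titles of pro17 libraries 2 and 3 do not repeat the allele number of the genotype label, by which they were grouped. Plants grew at 25 °C with 12 h of light a day at 250 µmol m-2 s-1. Leaves without veins, 4 as the protocol describes it, were blended in cold water and the epidermal peels kept on a mesh, so other leaf cells can be carried along. No guard cell markers were checked, because they were set by description words and the identifiers carry none. Only loci for mesophyll cells were listed by identifier. The labels do not state whether replicates are different plants, and p-values here cover the variation among libraries, part of which may be technical.

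Guard cells flank each stomatal pore of the leaf surface, and by swelling or shrinking they set how much water a leaf loses. DELLA proteins act in the nucleus to hold back growth responses until gibberellin triggers their breakdown, and the tomato DELLA is PROCERA, which gives the line pro its name. Dehydrins are proteins that plant cells make as they lose water, largely under abscisic acid. The file pairs no name, description or sequence with its Solyc identifiers, and the reference table used here matched 0 of them. The 100 genes are therefore described by identifier, level and pattern, without a function, and no sequence is shown.

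Total reads per library were 14826561 to 20445679, the highest in pro library 3. This library stands apart over the whole table. Among the 17625 genes with the floor met, it held the lowest of the 9 values at 32.1% and the highest at 31.1%, against 4.60% to 14.2% and 4.49% to 16.7% in the other libraries. The locus fixed as a dehydrin from general knowledge, Solyc02g084850, read 35709.7 normalized counts in pro library 3. It read 331 and 7.91 in pro libraries 1 and 2, then 42.2, 35.9 and 37.4 in pro17 and 12.6, 38.3 and 174 in M82 (libraries 1 to 3). Solyc11g011260, fixed in the same way as PROCERA, had 3892, 4507 and 2851 normalized counts in pro libraries 1 to 3 and 5628, 5486 and 7448 in pro17 libraries 1 to 3. It had 3754, 3934 and 3824 in M82 libraries 1 to 3.

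Pro library 3 held 16602 reads of the 100 genes in all, 0.0812% of its reads. The genes took 0.506% of the reads in pro library 1, 1.24% in pro library 2, 0.778% to 0.807% in pro17 and 0.659% to 0.995% in M82. In bulk samples, fewer cells of a type and less RNA per cell cannot be told apart. The median normalized count of the 100 genes was 15.7 in pro library 3. It was 101 in pro library 1, 202 in pro library 2, 180 to 190 in pro17, and 125 to 224 in M82. The value in pro library 3 was at most 25.0% of the lowest other library by the rule, with a median of 18.6% and quartiles of 13.0% and 21.8%. It lay at least 8-fold below the lowest other library at 23 genes, at least 10-fold at 17 and at least 16-fold at 6. Each of these counts includes the 2 genes with no read in pro library 3. Set against a floor of 3 reads, those 2 are shown only to be at least 15.4-fold and 8.02-fold lower. Few reads support many of these values: 42 genes had at most 10 reads in pro library 3 and 2 genes had none. Ratios and intervals given here cover counting error only, since PCR copies were not marked by molecular identifiers.

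**Figure D1:**
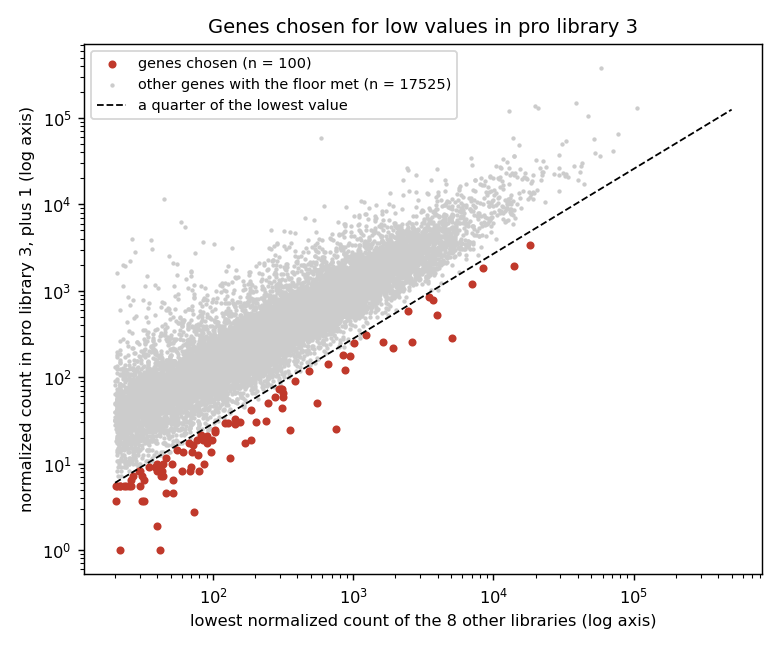
Normalized count in pro library 3 plus 1 (vertical, log axis) against the lowest normalized count of the 8 other libraries (horizontal, log axis), for all 17625 genes with the floor met. The 100 chosen genes (red) lie under the dashed 4-fold line at lowest values from 20.3 to 18137, and the other genes (grey) lie above it.

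The limit cuts through a continuous range and no gap marks it. Just inside lay Solyc02g091830, with 20.6 normalized counts in pro library 3 and a lowest other value of 82.5 normalized counts, and Solyc05g007830, with 303 and 1227 (4.05-fold). Just outside lay Solyc06g065970, with 1014 and 4041 (3.99-fold), and Solyc03g118410, with 246 and 971 (3.96-fold). The same limits set on each other library in turn, as a description, picked 1 gene in pro library 1, 4 genes in pro library 2, 5 genes in M82 library 1 and 0 in each of the other 5 libraries. The opposite pattern, a value in pro library 3 at least 4-fold above the highest other library and at least 80, was met by 121 genes.

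The 2 genes with the lowest ratio had no read in pro library 3. Solyc07g008240 read 0 normalized counts there, against 43.0 and 41.5 in pro libraries 1 and 2, 239.8, 157 and 216 in pro17, and 83.4, 68.7 and 64.6 in M82. Set against a floor of 3 reads in pro library 3 (2.69 normalized counts), its lowest other library was at least 15.4-fold higher. Solyc11g005820 read 0 there, against 29.0 and 74.1 in pro libraries 1 and 2, 29.7, 21.6 and 29.0 in pro17, and 36.6, 42.2 and 25.8 in M82, at least 8.02-fold higher in the lowest of them. The 8 libraries with reads overlap between groups at Solyc11g005820, while at Solyc07g008240 every pro17 library lay above every library of the other groups. The largest gap among genes with a read was at Solyc08g078640, named after its value was seen. It had 1 read in pro library 3 and 40 in the next lowest library, which is 44.4-fold after scaling (95% interval from exact binomial limits, 7.56 to 1805). The gene was picked for this gap, between the values the rule used. The interval therefore lacks its stated coverage, shows only how little 1 read fixes the ratio, and adds no support.

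The 2 genes with the highest mean in M82 had more reads in pro library 3 than most, 2167 and 3809. Solyc12g009650 had 1942 normalized counts in pro library 3. It had 13904 and 61834 in pro libraries 1 and 2, 22464, 21490.5 and 19479.8 in pro17, and 26671, 44058 and 17669.5 in M82. Solyc03g005780 had 3414 in pro library 3, with 18137 and 37030.3 in pro libraries 1 and 2, 18413, 18199.9 and 18296 in pro17, and 21442, 28883 and 21707 in M82. At both, pro library 2 held the highest and pro library 1 the lowest of the 8 other values, and the pro17 libraries lay close together. Over all 100 genes the mean in M82 was 28.0 to 29466 with a median of 181, lower than the 406 of all genes with the floor met. The levels are not adjusted for gene length and so do not rank transcripts by abundance.

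**Figure D2:**
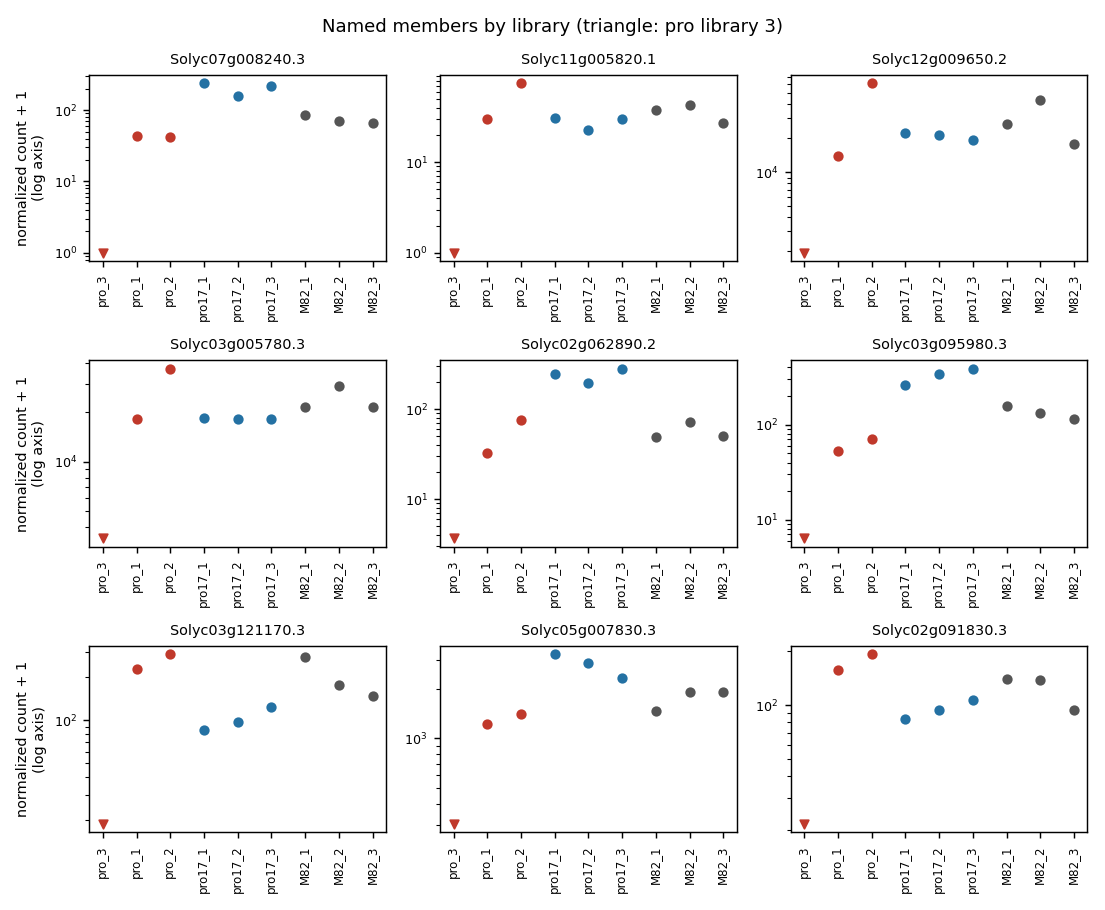
Normalized count plus 1 (log axis) of 9 named members in each library, with pro in red (pro library 3 as a triangle), pro17 in blue and M82 in grey. The triangle is the lowest point in every panel, as the rule requires, and the pro17 points lie above all others at Solyc07g008240, Solyc02g062890, Solyc03g095980 and Solyc05g007830.

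The rule sets no order among the 8 other libraries, but many of the 100 genes had a like order there. Each gene was set against its own median over the 8 libraries on the log2(normalized count + 1) scale. The median over the genes was -0.50 in pro library 1 and -0.38 in M82 library 3. It was 0.30 in pro library 2, 0.21 and 0.22 in M82 libraries 1 and 2, and between -0.03 and 0.00 in the 3 pro17 libraries. For all genes with the floor met, the same medians lay between -0.01 and 0.01 in every library. The value was below the gene's own median at 84 of 100 genes in pro library 1 and at 83 in M82 library 3, against 30 in pro library 2, 20 and 25 in M82 libraries 1 and 2, and 49 to 56 in pro17.

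**Figure D3:**
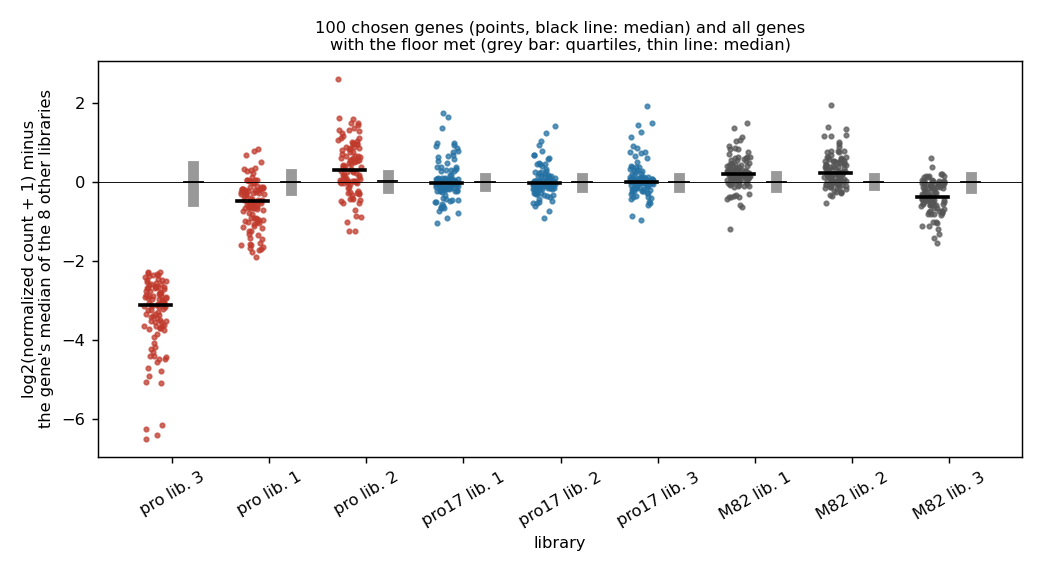
Log2 normalized count of each of the 100 genes less its own median over the 8 libraries other than pro library 3 (points, with the median as a black line), by library. Grey bars give the quartiles of all 17625 genes with the floor met. Beside pro library 3, on which the genes were chosen, the points lie lowest in pro library 1 and M82 library 3, with medians of -0.50 and -0.38.

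Pro library 1 and M82 library 3 are the libraries in which the dehydrin locus read next highest after pro library 3, at 331 and 174 normalized counts. Pro library 1 lay below pro library 2 at 88 of the 100 genes (49% of the genes with the floor met), and M82 library 3 lay below both other M82 libraries at 81 (39%) and above both at 6 (38.2%). Both orders held together at 75 genes (28.7% of all with the floor met), the second alone at 6, the first alone at 13 and neither at 6. Pro library 1 was at or under 0.5 times pro library 2 at 45 genes (5.16%). Its log2 ratio to pro library 2 ran from -3.36 to 0.84 with a median of -0.92. The log2 ratio of M82 library 3 to the lower of M82 libraries 1 and 2 ran from -2.08 to 1.14 with a median of -0.46. For all genes with the floor met those medians were 0.01 and 0.09.

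Set against M82 libraries 1 and 2 and pro library 2 together, pro library 1 was below all 3 at 84 genes (33.4%) and above all 3 at 5 (34.9%). M82 library 3 was below all 3 at 73 (34%). Both were below all 3 at 67 genes (22.8%), and both above all 3 at 2 genes (21.4%). Those 2 genes, named after their values were seen, were Solyc10g008710 and Solyc08g066460. Solyc10g008710 had 8.96 normalized counts in pro library 3. It had 225 in pro library 1 and 197 in M82 library 3, against 127 in pro library 2 and 191 and 132 in M82 libraries 1 and 2. Solyc08g066460 had 7.17 in pro library 3. It had 169 in pro library 1 and 122 in M82 library 3, against 93.9 in pro library 2 and 96.0 and 90.3 in M82 libraries 1 and 2. The share with both below was 71.0% of 31 genes with an M82 mean under 100, 64.7% of 51 genes from 100 to 1000 and 66.7% of 18 genes above (16.1%, 20.9% and 32.1% of all genes with the floor met in these classes). M82 library 3 and pro library 1 belong to different genotypes and were singled out for their values, so no test was made of them as a group, and the part of what moves with the dehydrin locus in this order was not tested.

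**Figure D4:**
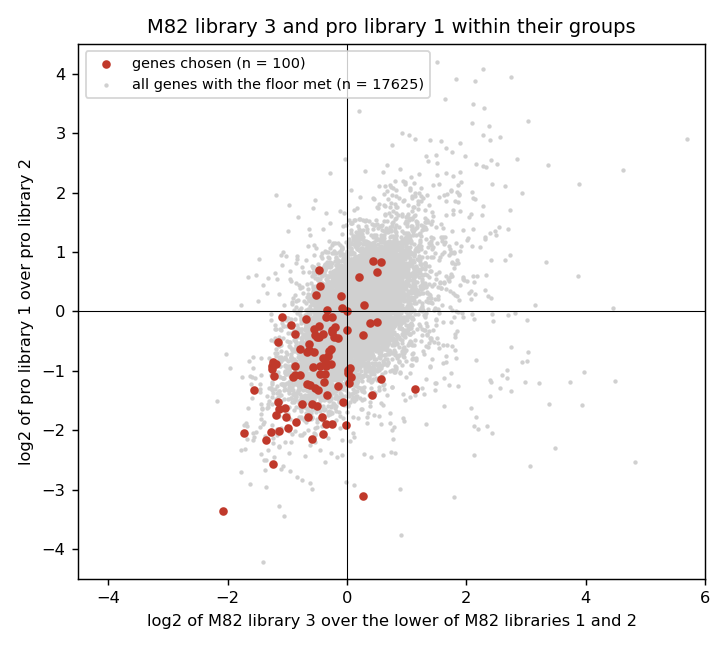
Log2 ratio of pro library 1 to pro library 2 (vertical) against the log2 ratio of M82 library 3 to the lower of M82 libraries 1 and 2 (horizontal), both on normalized counts plus 1, for the 100 genes (red) and all 17625 genes with the floor met (grey). Of the 100 genes, 75 lie in the lower left quadrant, where both ratios are below 0, against 28.7% of all genes.

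Over the 8 other libraries the 100 genes had a wider median spread than all genes with the floor met. The highest of the 8 values was 1.32 to 10.5 times the lowest, with a median of 2.73, against 1.56 for all genes with the floor met. Within M82 the median ratio of the highest to the lowest library was 1.77, against 1.28 for all genes with the floor met. Within pro17 the 2 medians were closer, at 1.29 and 1.18. The lowest of the 8 values was in pro library 1 at 53 genes (19.6% of all with the floor met) and in M82 library 3 at 19 (12.1%). The highest was in pro library 2 at 42 genes (18.6%), in a pro17 library at 25, in M82 library 1 or 2 at 15 each, in pro library 1 at 3 and in M82 library 3 at 0. Pro library 2 lay above all M82 libraries at 45 genes (28.1%).

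Differences between the groups were tested without pro library 3, with limma's moderated test on log2(normalized count + 1) over 21206 genes that passed an expression filter, in 1 fit of the other 8 libraries. All 100 genes passed the filter, since the rule holds them above it in every library of the fit. Fold changes on this scale understate those of low genes. The 3 comparisons share groups, so their values are given side by side and not as support for each other.

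In pro17 against M82, 3 of the 100 genes passed adjusted p 0.05, all higher in pro17 (0.953% of all tested genes passed, 0.509% upward and 0.443% downward). Solyc02g062890 averaged 241 ± 42.9 normalized counts in pro17 and 55.9 ± 12.8 in M82 (SD, n = 3 each), with a log2 fold change of 2.10 ± 0.32 (SE) and an adjusted p of 0.0291 in limma. Its values were 246, 196 and 281 in pro17 and 48.0, 70.7 and 48.9 in M82, without overlap, beside 31.98 and 75.1 in pro libraries 1 and 2 and 2.69 in pro library 3. Solyc07g008240 averaged 204 ± 42.5 in pro17 and 72.2 ± 9.89 in M82 (1.47 ± 0.20, adjusted p = 0.0220 in limma). Solyc03g095980 read 259, 339 and 389 in pro17 and 155, 131 and 113 in M82, also without overlap (1.29 ± 0.21, adjusted p = 0.0328 in limma). None of the 100 genes passed as lower in pro17 with limma or edgeR, while DESeq2 called 3 lower. In limma 18 of the 100 genes had an unadjusted p under 0.05, 13 higher and 5 lower, against 12.6% of all tested genes. EdgeR called 3 of the 100 genes (195 over all genes) and DESeq2 11 (766 over all genes).

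Over the 100 genes the log2 fold change of pro17 against M82 ran from -1.57 to 2.10, with a median of -0.08 against -0.01 for all tested genes, 44 positive and 56 negative. All pro17 libraries lay above all M82 libraries at 15 genes (10.1% of the genes with the floor met) and below them at 12 (10.8%). The calls changed with single libraries left out. Without M82 library 1 or 2, or without any one pro17 library, 0 of the 100 genes passed, without M82 library 3 there were 2, and without pro library 1 or 2 there were 5. With pro library 3 in the fit, 0 passed, and with only the M82 and pro17 libraries 5 did. With pro library 3 in the fit, the adjusted p in limma was 0.623 (Solyc02g062890), 0.926 (Solyc07g008240) and 0.799 (Solyc03g095980). The rule sets that library far below the others at these genes, which widens the spread used in that fit. Among the other alternatives the adjusted p was highest without pro17 library 3, at 0.149, 0.137 and 0.165 in the same order. Solyc03g095980 also lost its call without M82 library 3.

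In pro against M82, with pro libraries 1 and 2 only, 0 of the 100 genes passed in limma, where 10 had an unadjusted p under 0.05 (0.207% of all tested genes passed, 0.0613% upward and 0.146% downward, and 6.11% had an unadjusted p under 0.05). EdgeR called 0 of the 100 genes (37 over all genes) and DESeq2 called 2, both lower in pro (179 over all genes). The log2 fold change ran from -1.42 to 0.55 with a median of -0.06, against 0.00 for all tested genes, and was negative at 59 genes. Pro libraries 1 and 2 both lay below all M82 libraries at 10 genes (7.19% of the genes with the floor met) and above them at 2 (8.45%). Without pro library 2, 1 gene passed. Within the genotype, the median gene was 6.53-fold (library 1) and 12.5-fold (library 2) above pro library 3. Over the 98 genes with a read in pro library 3, the mean of M82 was a median of 10.2-fold above it and the mean of pro17 9.32-fold.

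**Figure D5:**
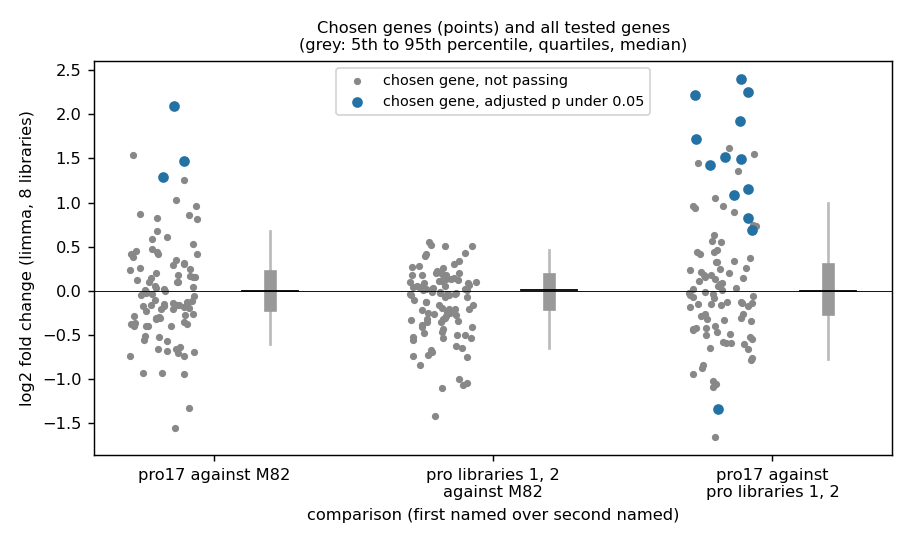
Log2 fold change in limma's fit without pro library 3 for the 100 genes (points, blue where adjusted p is under 0.05) and for all 21206 tested genes (grey: 5th to 95th percentile, quartiles and median), in each comparison. Passing genes number 3 in pro17 against M82, 0 in pro libraries 1 and 2 against M82, and 13 in pro17 against pro libraries 1 and 2, where 12 lie above 0.

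In pro17 against pro libraries 1 and 2, 13 of the 100 genes passed in limma, 12 higher and 1 lower in pro17 (5.36% of all tested genes passed, 3.07% upward and 2.29% downward). The 12 had log2 fold changes of 0.68 to 2.41 with a median of 1.51, and adjusted p-values of 0.00133 to 0.0468. At all 12, every pro17 library lay above pro libraries 1 and 2, which a call in these same libraries makes likely and which adds no support. The M82 mean lay between the means of the other 2 groups at all 12. No share over all upward calls was computed for that order, so it is a description. The 3 genes that passed against M82 are among the 12, and both comparisons share the pro17 libraries. Every pro17 library lay above pro libraries 1 and 2 at 22 of the 100 genes (17.4% of the genes with the floor met) and below them at 10 (19.7%). The median log2 fold change over the 100 genes was 0.01, against 0.00 for all tested genes, so the 12 upward calls stood beside many genes near or below 0.

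Solyc03g095980 averaged 329 ± 65.4 normalized counts in pro17 (SD, n = 3), against 61.1 ± 12.9 in pro libraries 1 and 2 (n = 2). Its log2 fold change of 2.41 ± 0.23 (SE, adjusted p = 0.00133 in limma) passed under all 17 alternatives tried, with an adjusted p of at most 0.0427. The pro libraries read 52.0 and 70.2, and pro library 3 read 5.38. Solyc02g062890 averaged 241 ± 42.9 in pro17 and 53.6 ± 30.5 in pro libraries 1 and 2 (2.26 ± 0.36, adjusted p = 0.0108 in limma). That call was lost with pro library 3 in the fit (adjusted p = 0.0729) and without pro17 library 1 or 3 (0.0527 and 0.0541). At Solyc07g008240 the log2 fold change was 2.23 ± 0.23 (adjusted p = 0.00170 in limma), a call that was lost only with pro library 3 in the fit (adjusted p = 0.121) among the 17 alternatives tried.

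The 1 gene that fell in pro17 against pro libraries 1 and 2 was Solyc03g121170, with 84.4, 96.1 and 122 normalized counts in pro17, against 226 and 287 in pro libraries 1 and 2. M82 read 273, 175 and 146, between the other groups in mean. Its log2 fold change was -1.34 ± 0.28 (SE, adjusted p = 0.0309 in limma), lost under 7 of 17 alternatives. Among them were the fits without M82 library 2, pro library 2 or any one pro17 library (adjusted p up to 0.111). With pro library 3 in the fit, the adjusted p was 0.967. Solyc05g007830, just inside the 4-fold limit, read 3232, 2856 and 2328 in pro17, against 1227 and 1406 in pro libraries 1 and 2 (1.08 ± 0.17, adjusted p = 0.0113 in limma). That call was lost with pro library 3 in the fit and without pro17 library 2. The count of 13 became 14, 9 and 20 without M82 libraries 1, 2 and 3, 23 and 21 without pro libraries 1 and 2, and 5, 6 and 5 without pro17 libraries 1, 2 and 3. It was 14 with edgeR and 22 with DESeq2 (1102 and 1986 over all genes). With pro library 3 in the fit it was 1 (712 over all genes). The rule sets that library far below pro libraries 1 and 2 at every member, which widens the spread within pro in that fit.

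With all 9 libraries, the comparison of pro with M82 contains the library on which the genes were chosen, so its values are a description. All 100 log2 fold changes were negative in limma, from -2.56 to -0.46 with a median of -1.13, and 0 genes passed (9 had an unadjusted p under 0.05, and 0.21% of all tested genes passed, 0.0764% upward and 0.134% downward). In the authors' deposited table, 0 of the 100 genes have an adjusted p under 0.05 in pro against M82 (0.751% of all listed genes do, 0.256% upward and 0.495% downward), and the lowest is 0.0589. The authors' deposited table also calls 0 in pro17 against M82 (1.34% of all listed genes, 0.73% upward and 0.608% downward). In pro17 against pro, the authors' deposited table calls 13, all higher in pro17 (7.81%, with 4.05% upward and 3.76% downward). That comparison also contains pro library 3, on which the genes were chosen, so its count is a description too. The median log2 fold change of the 100 genes in pro17 against pro is 0.42 in the authors' deposited table.

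The gene lists were fixed by identifier from general knowledge, and no annotation used here could check them. The gibberellin list had 0 of its 15 listed loci among the 100 genes and the abscisic acid list 0 of 8. Only 8 and 7 of these loci met the floor. The rule took 100 of 17625 genes with the floor met, so lists this short cannot show an absence. The list of chlorophyll a/b binding proteins, which harvest light in chloroplasts, had 3 of its 18 listed loci among the 100 genes. They are Solyc02g070950, Solyc03g005780 and Solyc03g005790, and all 18 listed loci met the floor. The list was fixed for photosynthetic mesophyll cells, but its transcripts were not shown here to be absent from guard cells. Over the whole list, 17 of 18 loci read lowest in pro library 3, and no locus was at 0 in any library. Their summed normalized count was 210968 in pro library 3, 375135 and 548322 in pro libraries 1 and 2, 341249 to 357514 in pro17 and 374335, 442523 and 388415 in M82 libraries 1 to 3. Without the 3 shared loci, 14 of 15 were lowest in pro library 3. Of all 17625 genes with the floor met, 5648 were lowest there. The 3 loci listed for the small subunit of Rubisco, the enzyme that fixes carbon dioxide, were all lowest in pro library 3, and none is among the 100 genes. They summed to 73640.2 normalized counts in pro library 3, against 145480.3 in pro library 1 and 251328 in pro library 2. The sums were 191771 to 224449 in pro17, and 212997, 243134 and 155929 in M82 libraries 1 to 3. The Rubisco sum was lower in pro library 1 and M82 library 3 than in pro library 2 and M82 libraries 1 and 2. The chlorophyll a/b binding sum did not follow that order, since pro library 1 and M82 library 3 both lay above M82 library 1. How much of these transcripts came from guard cells was not tested. Nor was the part of mesophyll cells or of these transcripts in the low level of the 100 genes.

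By the chromosome number that the identifiers carry, the 100 genes lay on all 12 chromosomes. Chromosome 3 held 16 (10.4% of the genes with the floor met), chromosomes 2 and 10 held 10 each (10.6% and 6.65%), and chromosome 11, which carries PROCERA, held 9 (6.80%). Chromosome 1 held 9 (12.8%), the other chromosomes held 4 to 8. Next to each other in the order of listed identifiers were 2 pairs, Solyc03g005780 with Solyc03g005790 and Solyc10g008710 with Solyc10g008720, named after their values were seen. Both genes of the first pair are on the list of chlorophyll a/b binding proteins. In the second pair, Solyc10g008720 had 178 normalized counts in pro library 3. It had 1287 in pro library 1 and 849.8 in M82 library 3, against 1542 in pro library 2 and 1168 and 975.4 in M82 libraries 1 and 2. Whether the genes of a pair share reads was not tested.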

How the data were processed

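The members and the gene lists were chosen with earlier results of these data known. The authors deposited 1 table of 23028 genes with a signal value per library that the file headers call normalized counts, given to 2 decimals. The submitters' processing notes name DESeq2, HTSeq, STAR 2.4.2a and cutadapt. Genome build, annotation and strand use were not given in the sources used here. Reads of overlapping, antisense or near-identical genes may therefore be mixed. The authors' deposited log2 fold changes and adjusted p-values were used for counts and lowest values only. In each library 100.0% of nonzero values were whole multiples of 1 step within 0.006, which gave whole reads.

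Without pro library 3, log2(normalized count + 1) was fitted in limma 3.58.1 (R 4.3.3, variance trend on). Of the listed genes, 21206 passed filterByExpr of edgeR, run on those whole reads. P-values were adjusted by Benjamini-Hochberg over all genes tested, two-sided, at 0.05. The limma and edgeR fits of pro17 against M82 were tested on simulated data, and the other fits were not. On the recovered reads, edgeR 4.0.16 with TMM called 195 (pro17 against M82), 37 (pro libraries 1 and 2 against M82) and 1102 genes (pro17 against pro libraries 1 and 2), and DESeq2 1.42.0 was the other alternative.

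Because no identifier carries a description, the rule for named genes took 2 genes per part: lowest ratio of pro library 3 to the lowest other library, highest M82 mean, highest and lowest fold change among passing members of each comparison, and both sides of the 4-fold limit. Counts over libraries are descriptions with no test.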

Additional observations from a re-analysis of the deposited data

How the results depend on the processing

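The number of genes meeting the rule was 102, 106 and 104 with TMM, library-total and upper-quartile scaling (100, 99 and 100 shared) and 130 with a floor of 10. It was 66 with a floor of 50, 208 with a 3-fold and 36 with a 6-fold limit. Under TMM scaling the counts by library order stayed at 67, 81 and 88. In pro17 against M82, members called were 0 with all 9 libraries, 5 with only the 2 groups compared, 11 with DESeq2 and 0 to 5 with single libraries left out. All genes called, against 202, were 25, 447, 766 and 4 to 454. In pro (libraries 1 and 2) against M82, DESeq2 called 2 members, and leaving out libraries gave 0 to 1. All genes called, against 44, were 17 with only the 2 groups compared, 179 with DESeq2 and 21 to 156 with single libraries left out. In pro17 against pro (libraries 1 and 2), members called were 1 with all 9 libraries, 22 with DESeq2 and 5 to 23 with single libraries left out. All genes called, against 1136, were 712, 1986 and 356 to 1612. Without pro library 1 or 2 the remaining pro library is assumed to vary like the other groups. With all 9 libraries, the rule itself widens the spread within pro at the members. The cause of the other shifts was not tested. No direction of a named call reversed under the alternatives tried. Few reads in pro library 3 limit the size of the gap at many genes.

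For libraries of pro17 and M82 with the same replicate number, the labels state nothing shared beyond that number. The deviations of these libraries from their group means correlated at 0.167, 0.183 and 0.0669 for numbers 1 to 3, each library correlating best with its own number. Pairs of unlike number correlated at -0.138 to -0.0176. Deviations from a group mean sum to 0 within the group, which ties these values together, so the matches are not independent of each other. Whether they share more than the number was not tested. With the replicate block, members called were 1, 0 and 10, and all genes called were 109, 24 and 869, in the same order of comparisons.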
